A study of Mus musculus with 18 samples.

Results

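The genes described here were 10 AP-1 and immediate early genes: the FOS genes Fos, Fosb and Fosl2, the JUN genes Jun, Junb and Jund, and Egr1, Ier2, Klf2 and Klf6. They were taken by name, not by their values, from the 41079 genes of the count tables (28108 with 1 or more fragments in some library). All 10 were found, and all 10 passed the filter on low counts in every fit. The study counted transcripts of bone marrow cells selected for the receptor cKit, from wild-type mice (WT) or with AE9a, the shortened variant of the AML1-ETO (RUNX1-RUNX1T1) leukemia fusion that arises by splicing. Its stated interest was the self-renewal of AE9a stem and progenitor cells and their response to inhibitors of WDR5 and MLL1, subunits of a histone methyltransferase complex. Each genotype received the vehicle DMSO, C16 or RE, which gave 6 groups of 3 libraries and 18 in all. The targets, doses and exposure times of C16 and RE are not in the labels, nor are the delivery of AE9a, the age of the mice and whether the 3 libraries of a group came from separate animals. P-values therefore measure the spread between these libraries, which may be technical. The genotypes came in separate count tables, so a batch that follows the genotype cannot be told apart from it.

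FOS and JUN proteins pair through leucine zippers to form AP-1, a dimer that binds DNA and regulates growth, differentiation and stress programs. Many of their genes, with Egr1 and Ier2, are induced within minutes of a signal and without new protein synthesis. This runs mainly through ERK, JNK and p38 kinases acting on serum response factor, ternary complex factors and CREB. The same genes are induced in blood cells by cytokines, by adhesion and by handling after the cells leave the animal. In bone marrow, AP-1 and EGR1 are known for roles in monocytic differentiation and in stem cell quiescence, and the Kruppel-like factors KLF2 and KLF6 for roles in quiescence, migration and inflammatory responses.

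Promoter sequence shows one feature that the members share in part. The set of RefSeq promoters used here (GRCm38.p6) held a start site for 8 of the 10 and lacked Egr1 and Ier2. Within the 250 bases before the start, the CREB and ATF half-site TGACG stood on either strand in Fos, Fosb, Junb and Klf2, and in 17.77% of all 32851 promoters in the table. The 8-base pattern TGANNTCA, a loose form of the AP-1 and ATF site with free middle bases, stood in 11.93% of all promoters. Jun and Klf6 held it as TGACATCA and Jund as TGAAATCA, and neither is a full palindrome. Fosl2 held neither. The shorter AP-1 site TGANTCA (6.749% of promoters) and the CArG box bound by serum response factor (1.467%) were in none of the 8 windows. Bases farther upstream were not searched, so sites there are not covered. A match describes letters and not binding. The 250 bases are given for Fos, Fosb and Junb, which hold the half-site, and for Jun and Klf6, which hold the same 8-base site, each 5′ to 3′ on the gene's strand with TGACG and TGANNTCA in capitals. They lie at chr12:85473640-85473889 (plus strand, Fos), chr7:19310046-19310295 (minus, Fosb), chr8:84978749-84978998 (minus, Junb), chr4:95052223-95052472 (minus, Jun) and chr13:5861239-5861488 (plus, Klf6) on GRCm38.p6.
Fos: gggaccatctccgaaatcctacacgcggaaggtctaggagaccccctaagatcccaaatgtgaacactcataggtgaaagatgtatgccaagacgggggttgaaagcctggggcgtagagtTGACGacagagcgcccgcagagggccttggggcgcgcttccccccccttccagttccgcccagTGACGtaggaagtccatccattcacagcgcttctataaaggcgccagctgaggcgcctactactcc
Fosb: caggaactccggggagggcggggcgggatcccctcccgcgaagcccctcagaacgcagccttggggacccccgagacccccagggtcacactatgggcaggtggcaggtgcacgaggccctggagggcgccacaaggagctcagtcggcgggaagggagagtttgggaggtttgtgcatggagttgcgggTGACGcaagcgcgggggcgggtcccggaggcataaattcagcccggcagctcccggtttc
Junb: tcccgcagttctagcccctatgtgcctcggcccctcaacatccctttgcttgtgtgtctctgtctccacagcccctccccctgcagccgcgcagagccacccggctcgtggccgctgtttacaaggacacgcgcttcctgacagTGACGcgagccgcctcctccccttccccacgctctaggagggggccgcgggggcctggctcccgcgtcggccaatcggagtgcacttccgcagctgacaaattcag
Jun: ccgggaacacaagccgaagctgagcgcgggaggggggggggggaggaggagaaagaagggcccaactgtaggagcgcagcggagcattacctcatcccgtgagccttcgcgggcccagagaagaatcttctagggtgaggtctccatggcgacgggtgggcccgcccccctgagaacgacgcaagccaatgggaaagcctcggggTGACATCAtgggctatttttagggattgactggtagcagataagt
Klf6: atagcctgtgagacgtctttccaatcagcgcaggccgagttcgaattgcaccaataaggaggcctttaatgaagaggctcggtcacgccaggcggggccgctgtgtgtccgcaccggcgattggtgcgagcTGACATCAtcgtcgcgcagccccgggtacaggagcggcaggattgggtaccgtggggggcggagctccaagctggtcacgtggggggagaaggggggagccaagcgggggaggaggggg
In Fos the half-sites began 129 and 66 bases before the start, in Fosb 60, in Junb 106 and in Klf2 241. The 8-base site began 45 bases before the start in Jun, 61 in Jund and 119 in Klf6.

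Library totals ran from 16053727 to 27207748 fragments. Levels are given as CPM, fragments of the gene scaled to the library total. Kit, the gene of the selection marker, was at 60.8 to 221 CPM in the WT libraries, at 886 to 1206 in AE9a DMSO, at 215 to 312 in AE9a C16 and at 1331 to 1551 in AE9a RE. Runx1t1, the 3′ partner of the fusion, was at most 0.402 CPM in WT, 34.5 to 46.8 in AE9a DMSO, 34.5 to 43.2 in AE9a RE and 0.205 to 4.06 in AE9a C16. WT replicate 2 stood apart under each treatment. For WT C16 replicate 2 the root mean square log2 difference over genes was smallest to WT DMSO replicate 2 (0.489). It was 0.496 to 0.518 to each AE9a C16 library but 0.899 and 0.952 to WT C16 replicates 1 and 3. AE9a C16 replicate 3 lay 0.458 and 0.490 from C16 replicates 1 and 2, which were 0.145 apart. Calls of the members that were lost or gained without one of these libraries are given with and without it. Correlations, marker sums, family sums and shares are given only with them. The tissue was bulk, so fewer cells that express a gene and less RNA per cell cannot be told apart.

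Per kilobase of exon, which allows genes to be compared, the mean over 18 libraries was highest for Junb (65.1 CPM per kilobase), then Ier2 (55.9), Egr1 (55.2), Klf6 (44.9), Jund (42.1), Fos (33.6), Jun (28.4), Klf2 (10.1), Fosl2 (9.63) and Fosb (5.49). The members differed far more in how much they varied. The highest library exceeded the lowest 221-fold for Fosb, whose lowest library held 4 fragments, and 68.1-fold for Egr1, against 8.42-fold for Klf2, 6.32-fold for Fos and 2.79-fold to 4.30-fold for the other 6. AE9a C16 had the lowest mean of the 6 groups for 9 members, all but Fosl2, where WT C16 was lowest. AE9a RE had the highest mean for Fos, Fosb, Fosl2, Jun and Klf6, WT C16 for Junb, Egr1 and Ier2, and WT RE for Jund and Klf2. Because the WT groups were broad, as the plot of levels by library shows, neighbouring groups in these orders mostly overlapped.

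**Figure D1:**
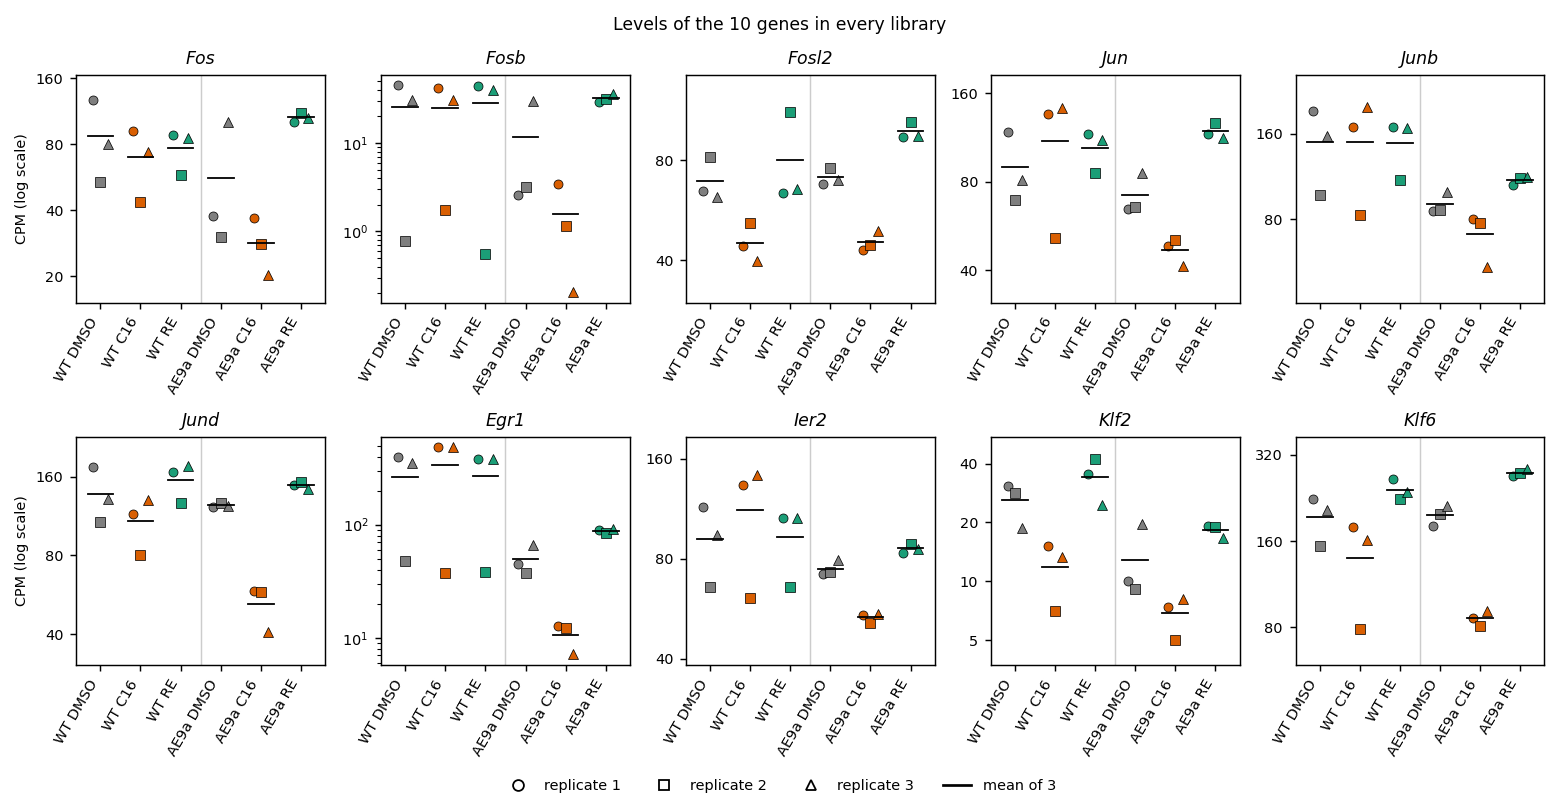
Level of each of the 10 genes in every library (CPM on a log scale, 1 panel per gene, columns are the 6 groups, symbols mark the replicate number and bars the mean of 3). The AE9a C16 libraries lie low and the AE9a RE libraries close together and high, while WT replicate 2 lies far below replicates 1 and 3 for Fosb and Egr1.

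In AE9a cells all 10 genes were lower on average after C16 and higher after RE than with DMSO. By edgeR's quasi-likelihood test, adjusted over the 14704 genes tested, 8 of the 10 fell under C16, all but Fos and Junb. Over all genes 33.2% fell and 66.3% changed in either direction, so calls under C16 were common. Under RE 5 of the 10 rose, Fosl2, Jun, Egr1, Ier2 and Klf6, where 12.2% of all genes rose. Same-numbered AE9a DMSO and RE libraries deviated together over genes (r of 0.378 to 0.593). With the replicate number as a block the same 5 rose under RE, where 13.6% of all genes rose. The median log2 change of the members was -0.91 under C16 and 0.55 under RE, beside 0.0027 and -0.0081 over all genes tested. Without AE9a DMSO replicate 3 the members' median was -0.55 under C16 and 0.75 under RE. Both comparisons use the same 3 DMSO libraries, so a high DMSO library lowers both log2 changes and a low one raises both. A high one thus deepens a fall under C16 and lessens a rise under RE. With the spread estimated over all 18 libraries instead, 3 of the 10 fell under C16 (Fosl2, Jund and Klf6, where 21.5% of all genes fell) and 0 rose under RE (2.13%).

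Among the FOS genes, Fos (chromosome 12, 85520664 to 85524048, GRCm39), the founding member and a strong activator, was at 37.5, 30.2 and 101 CPM in AE9a DMSO replicates 1, 2 and 3. It was at 37.0, 28.1 and 20.3 CPM after C16 and at 101, 111 and 106 CPM after RE. DMSO replicate 3 stood at the RE level while DMSO replicates 1 and 2 lay within or next to the C16 range, so the groups overlapped. The log2 change was -0.94 ± 0.42 (SE, adjusted p = 0.0713) under C16 and 0.96 ± 0.40 (adjusted p = 0.103) under RE. Without DMSO replicate 3 the rise under RE was 1.69 (adjusted p = 0.00406) and the change under C16 -0.22 (adjusted p = 0.397), and the fall under C16 passed without DMSO replicate 1 (-1.19, adjusted p = 0.0435) or 2 (-1.27, adjusted p = 0.0202).

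Fosb (chromosome 7, 19036621 to 19043970), a FOS relative with a short splice form that lacks much of the activation domain, followed the same libraries more steeply. It was at 2.61, 3.16 and 29.5 CPM with DMSO, at 3.40, 1.14 and 0.205 CPM after C16 and at 29.3, 31.7 and 35.4 CPM after RE. DMSO replicate 3 again lay at the RE level, and DMSO replicates 1 and 2 lay among the C16 libraries. The fall under C16 was 2.84 on the log2 scale (change -2.84 ± 1.04, adjusted p = 0.0362), and without DMSO replicate 3 it was -0.86 (adjusted p = 0.272). The call was also lost without C16 replicate 2 (-2.63, adjusted p = 0.101) or 3 (-2.36, adjusted p = 0.0800). Under RE the change was 1.52 ± 0.81 (adjusted p = 0.190), and 3.51 without DMSO replicate 3 (adjusted p = 0.00658).

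Fosl2 (chromosome 5, 32292599 to 32315184), which encodes FRA2, a FOS protein with a weak activation domain, showed no such split. It was at 68.0, 75.8 and 69.7 CPM with DMSO, at 42.8, 44.5 and 48.8 CPM after C16 and at 94.2, 105 and 94.5 CPM after RE. The 3 groups did not overlap. Fosl2 fell by 0.62 on the log2 scale under C16 (change -0.62 ± 0.069, adjusted p = 4.46e-05) and rose by 0.50 ± 0.068 under RE (adjusted p = 0.00151).

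Of the JUN genes, Jun (chromosome 4, 94937273 to 94940459), the main target of JNK and a gene that its own protein activates, was at 64.8, 65.5 and 85.9 CPM with DMSO. It was at 48.3, 50.7 and 41.3 CPM after C16 and at 116, 127 and 113 CPM after RE. No libraries overlapped between groups, although DMSO replicate 3 was again the highest of its group. Jun fell by 0.59 under C16 (change -0.59 ± 0.12, adjusted p = 0.00174) and rose by 0.77 ± 0.12 under RE (adjusted p = 0.00209).

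Junb (chromosome 8, 85703538 to 85705377), often an antagonist of JUN and a brake on myeloid growth, had the smallest change of the 10 under C16. It was at 85.7, 86.3 and 100 CPM with DMSO, at 80.1, 77.8 and 54.5 CPM after C16 and at 105, 112 and 113 CPM after RE. The groups did not overlap, but the changes of -0.32 ± 0.13 (adjusted p = 0.0577) and 0.32 ± 0.13 (adjusted p = 0.0972) did not pass. The fall under C16 passed without C16 replicate 1 (-0.44, adjusted p = 0.0259) or 2 (-0.40, adjusted p = 0.0452).

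Jund (chromosome 8, 71150389 to 71153265), the JUN gene that is expressed most constantly and counts as growth-restraining, was nearly level within DMSO and dropped under C16. It was at 122, 127 and 124 CPM with DMSO, at 58.3, 58.1 and 40.7 CPM after C16 and at 149, 153 and 144 CPM after RE. All 3 C16 libraries lay below all DMSO libraries, and all RE libraries above them. The change was -1.21 ± 0.12 under C16 (adjusted p = 1.90e-05), the deepest of the JUN genes, and 0.30 ± 0.11 under RE (adjusted p = 0.0808).

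Outside AP-1, Egr1 on chromosome 18, a zinc finger factor downstream of ERK, was at 44.9, 37.5 and 66.4 CPM with DMSO. It was at 12.6, 12.2 and 7.13 CPM after C16 and at 89.1, 83.7 and 91.0 CPM after RE. The groups stood far apart, with the highest C16 library well below the lowest DMSO library. Egr1 fell by 2.17 under C16 (change -2.17 ± 0.24, adjusted p = 4.41e-05) and rose by 0.87 ± 0.22 under RE (adjusted p = 0.0171). The rise did not pass without DMSO replicate 1 (0.81, adjusted p = 0.0705) or RE replicate 3 (0.84, adjusted p = 0.0557).

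Ier2 (chromosome 8, 85387960 to 85389481), which encodes a nuclear protein of the early response, moved little but with little spread. It was at 71.9, 72.7 and 79.3 CPM with DMSO, at 54.1, 51.2 and 54.7 CPM after C16 and at 83.3, 88.6 and 85.7 CPM after RE. Again no group overlapped another. The change was -0.45 ± 0.052 under C16 (adjusted p = 5.34e-05) and 0.25 ± 0.052 under RE (adjusted p = 0.00825).

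Klf6 (chromosome 13, 5911488 to 5920392), a factor of inflammatory and growth control, gave the smallest adjusted p of the 10 in both directions. It was at 179.9, 199 and 213 CPM with DMSO, at 86.0, 80.6 and 90.8 CPM after C16 and at 270.5, 277 and 285 CPM after RE. The groups were cleanly separate, in the order C16, DMSO, RE. Klf6 fell by 1.17 under C16 (change -1.17 ± 0.069, adjusted p = 2.14e-06) and rose by 0.54 ± 0.068 under RE (adjusted p = 0.00114).

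Klf2 (chromosome 8, 73072906 to 73075498), known for quiescence of lymphocytes and endothelium, was at 10.1, 9.12 and 19.6 CPM with DMSO. It was at 7.44, 5.01 and 8.16 CPM after C16 and at 19.3, 18.9 and 16.7 CPM after RE. DMSO replicate 3 lay above the RE libraries here. The fall under C16 of 0.88 (change -0.88 ± 0.29, adjusted p = 0.0238) did not pass without DMSO replicate 3 (-0.46, adjusted p = 0.0597) or C16 replicate 2 (-0.69, adjusted p = 0.0829). The change of 0.56 ± 0.28 under RE (adjusted p = 0.163) became 0.98 without DMSO replicate 3 (adjusted p = 0.0107).

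**Figure D2:**
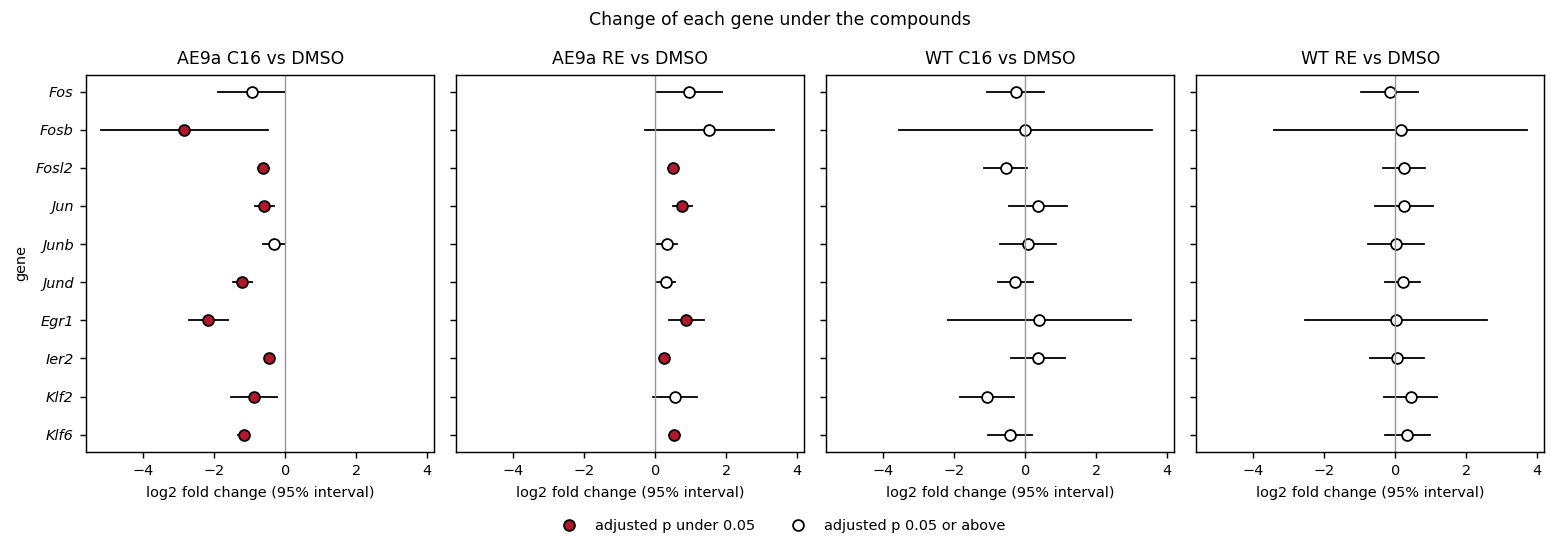
Log2 fold change of each gene against DMSO of the same genotype (x axis; bars are 95% intervals, filled points have an adjusted p under 0.05). In AE9a cells every point lies below 0 for C16 and above 0 for RE; in WT cells no point is filled, and the intervals of Fosb and Egr1 are the broadest.

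Counted by separation of the libraries, 8 members lay wholly below DMSO under C16, all but Fos and Fosb (37.4% of all genes), and 7 lay wholly above it under RE, all but Fos, Fosb and Klf2 (18.9%). AE9a DMSO replicate 3 was above both other DMSO libraries for 8 of the 10, with a median ratio of 1.24 to their mean, while 29.6% of the genes with a mean of at least 5 CPM were above. Over those genes it was close to replicates 1 and 2 (root mean square log2 difference 0.205 and 0.201). Its marker sums of 1168 CPM for stem and progenitor cells and 3439 CPM for neutrophils lay within the range of replicates 1 and 2, as did mast cell and erythroid sums. Monocyte and macrophage markers (2624 CPM against 2186 and 2040) and B cell markers (363 against 306 and 305) lay above that range. Below it lay megakaryocyte (269 against 397 and 337), T and NK cell (47.0 against 55.0 and 53.7) and stromal and endothelial markers (87.1 against 107 and 91.4). The part of these cells was not tested. Without AE9a DMSO replicate 3, 8 of the 10 rose under RE, all but Junb and Jund, where 7.81% of all genes rose. Under C16 6 fell in place of 8, with Fosb and Klf2 lost, where 31.2% of all genes fell.

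The direct contrast sets C16 libraries against RE libraries and not against DMSO, but its fit held all 9 AE9a libraries. The DMSO libraries thus shared in the estimate of the spread behind the p-values below. All 10 genes were lower after C16 than after RE in AE9a cells (37.2% of all genes were), and for all 10 the libraries did not overlap (38.4%). The difference ran from -0.64 ± 0.13 for Junb (adjusted p = 0.00164) through -1.51 ± 0.12 for Jund (adjusted p = 2.67e-06) and -3.04 ± 0.24 for Egr1 (adjusted p = 3.10e-06) to -4.36 ± 1.01 for Fosb (adjusted p = 0.00327). All 10 calls held in each of the 6 fits that left out 1 library of these groups. They also held in a fit of only the C16 and RE libraries (Junb -0.65, adjusted p = 0.00583 by edgeR's test). With the spread from all 18 libraries 9 held (28.6% of all genes were lower), and Junb did not pass (-0.64, adjusted p = 0.0650). Doses and times are not given, so the values compare these treatments as applied.

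Summed levels of cell type markers differed between the same groups. The summed level of 10 mast cell and basophil markers was 10796 to 14512.5 CPM in AE9a DMSO, 331 to 2314 in AE9a C16 and 17330 to 19663 in AE9a RE. Of those markers 9 fell under C16, and 0 passed under RE though all 10 were positive; none was at 0 in a whole AE9a group. The sum over 14 heat shock and handling genes was 9591 to 10399 CPM with DMSO, 12289 to 13771 after C16 and 8707 to 9213 after RE, opposite in order to the 10 members. AE9a C16 replicate 3, the lowest AE9a library for Fos, Fosb, Jun, Junb, Jund and Egr1, also had the lowest mast cell sum. For the other 4 members, Fosl2, Ier2, Klf2 and Klf6, the same library was the highest of the C16 group. Of the genes with a mean of at least 5 CPM, 36.6% were below both other C16 libraries in it and 44.6% above both. Markers of stem and progenitor cells summed to 1155 to 1436 CPM with DMSO, 435 to 646 after C16 and 1526 to 1730 after RE, and neutrophil markers to 3156 to 3731, 1465 to 1868 and 3496 to 4967 CPM. The part of these cells and of handling in the results was not tested.

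Summed within families, FOS expression in AE9a was 39.9 ± 22.4 CPM per kilobase with DMSO (mean ± SD, n = 3), 20.3 ± 3.98 after C16 and 72.6 ± 3.33 after RE. JUN expression was 115 ± 8.03, 71.4 ± 12.7 and 149 ± 4.53 CPM per kilobase. JUN transcripts thus outnumbered FOS transcripts in every library, by 2.014-fold to 2.103-fold in the 3 RE libraries, by 3.22-fold to 3.94-fold in the C16 libraries and by 3.90-fold, 4.31-fold and 1.89-fold in DMSO replicates 1, 2 and 3. The ratio in RE lay below that of every C16 library, while DMSO spanned both. Within the JUN family, Jund made up 37.7% ± 2.71 with DMSO, 25.5% ± 0.447 after C16 and 34.7% ± 0.743 after RE, and Junb 42.8% ± 0.879, 53.8% ± 1.49 and 40.2% ± 1.32. After C16 the JUN pool was thus smaller and held a larger share of Junb and a smaller share of Jund in all 3 libraries. Within the FOS family Fosb made up 11.7% ± 1.01 after RE and 1.84% ± 1.69 after C16. These sums and shares were not tested.

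**Figure D3:**
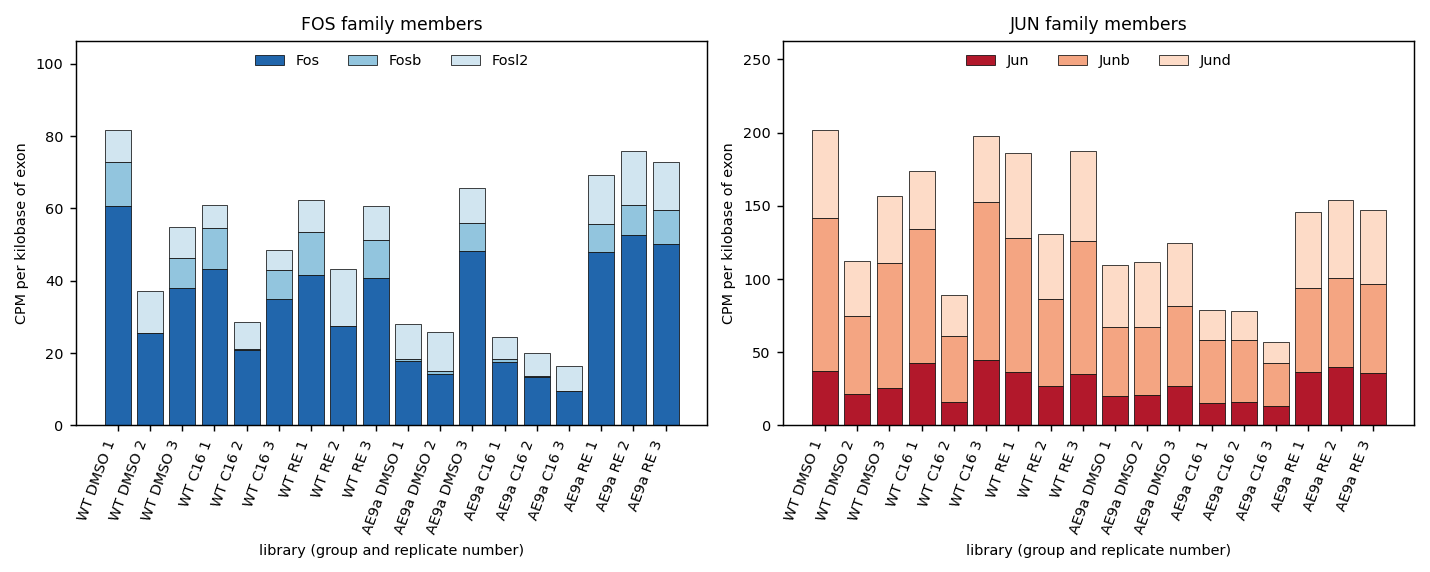
Summed level of the FOS genes (left) and of the JUN genes (right) in every library, stacked by gene (CPM per kilobase of exon, bars start at 0). In AE9a the RE bars are the tallest and the C16 bars the shortest, AE9a DMSO replicate 3 has a FOS bar of 65.8 against 28.1 and 25.9 in replicates 1 and 2, and Fosb is nearly missing from each WT replicate 2.

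In WT cells no member passed edgeR's quasi-likelihood test under either compound. Under C16 0 of the 10 passed (3.1% of 15046 genes did), 1 passed at an unadjusted p under 0.05 (Klf2), 1 by DESeq2 and 0 by limma-voom. Under RE 0 of the 10 passed (0.0266%), 0 did so unadjusted, and 0 by DESeq2 or limma-voom. The biological coefficient of variation over genes was 0.329 in WT and 0.103 in AE9a, so the intervals in WT were wider. Klf2 was at 30.9, 28.2 and 18.8 CPM with DMSO, at 15.1, 7.07 and 13.4 CPM after C16 and at 35.5, 42.2 and 24.6 CPM after RE. Its C16 libraries lay wholly below DMSO and RE, and Fosl2 was the only other member with WT C16 libraries wholly below DMSO (2 of 10, and 18.8% of all genes). No member had WT RE libraries wholly apart from DMSO (13.6%). The change under C16 was -1.07 ± 0.33 (adjusted p = 0.114), and against RE it was -1.50 ± 0.34 (adjusted p = 0.0300), the 1 member lower after C16 in that contrast (6.49% of all genes). Fosl2, Klf2 and Klf6 were the 3 members whose C16 and RE libraries did not overlap (19.5%). That call was lost without C16 replicate 1 (-1.71, adjusted p = 0.0579) or 3 (-1.59, adjusted p = 0.0726), or without RE replicate 1 (-1.50, adjusted p = 0.0867) or 2 (-1.28, adjusted p = 0.0759).

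Same-numbered WT libraries deviated together, but so did replicates 1 and 3 across numbers (r over genes was 0.762 between DMSO 1 and C16 1 and 0.779 between DMSO 1 and C16 3). The numbers thus set replicate 2 apart, and a pairing of replicates 1 and 3 is not shown. With the replicate number as a block 2 members fell under C16 (13.8% of all genes fell): Fosl2 by 0.55 (log2 change -0.55, adjusted p = 0.0187) and Klf2 by 1.04 (-1.04, adjusted p = 0.0423). Fosl2 was at 64.5, 81.8 and 61.8 CPM with DMSO, at 44.0, 51.6 and 39.7 CPM after C16 and at 63.9, 112 and 65.6 CPM after RE. Each C16 library lay below every DMSO and RE library, and replicate 2 was the highest of its group under all 3 treatments, unlike its place for the other FOS and JUN genes. In the contrast of C16 with RE, the block gave 4 lower members after C16 (18.5% of all genes): Fosl2 at -0.76 (adjusted p = 0.00449), Jund at -0.50 (adjusted p = 0.0166), Klf2 at -1.48 (adjusted p = 0.0102) and Klf6 at -0.83 (adjusted p = 0.0129). Under RE no member passed with the block either (0.512%).

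The spread in WT came largely from replicate 2. Egr1 was at 395, 47.4 and 354 CPM with DMSO, at 486, 37.8 and 485 CPM after C16 and at 385, 38.0 and 379.5 CPM after RE. Fosb was at 45.4, 0.787 and 31.0 CPM, at 42.4, 1.76 and 30.3 CPM and at 44.2, 0.561 and 40.2 CPM in the same order. Replicate 2 of both genes was thus low under every treatment, and the 3 groups overlapped fully. The 95% interval of the log2 change was -2.18 to 2.97 for Egr1 and -3.56 to 3.56 for Fosb under C16, and it also held large changes under RE (-2.55 to 2.60 and -3.41 to 3.71).

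The other JUN and early genes showed the same library more mildly. Jun was at 118, 69.4 and 81.2 CPM with DMSO, at 136, 51.4 and 143 CPM after C16 and at 117, 86.0 and 111 CPM after RE. Junb was at 192, 97.2 and 157 CPM, at 168, 82.6 and 198 CPM and at 168, 109.6 and 168 CPM. Replicate 2 was the lowest of its group each time. Jund was at 174, 108 and 132 CPM with DMSO, at 115, 80.5 and 130.2 CPM after C16 and at 167, 127 and 175 CPM after RE. Ier2 was at 115, 65.8 and 94.2 CPM, at 133, 61.1 and 143 CPM and at 106, 65.9 and 106 CPM. Both had their lowest values in replicate 2 of each group. Fos was at 128, 53.7 and 80.3 CPM with DMSO, at 91.5, 43.9 and 73.8 CPM after C16 and at 88.0, 57.8 and 85.7 CPM after RE. Klf6 was at 224, 154 and 205 CPM, at 179.7, 78.7 and 161 CPM and at 264, 224 and 238 CPM. For these, too, the groups overlapped between DMSO and either compound.

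WT replicate 2 was below both other libraries of its group for 8 of the 10 members with DMSO, 9 after C16 and 8 after RE, where 45.1%, 40.2% and 54.4% of the genes with a mean of at least 5 CPM were. Its median ratio to the mean of the other two was 0.663, 0.457 and 0.703. Marker sums moved with it: 10 neutrophil markers summed to 10017 CPM in WT DMSO replicate 2 and 20739.9 CPM in WT RE replicate 2, against 2933 to 3619 CPM in replicates 1 and 3 of those groups, and to 3672 CPM in WT C16 replicate 2 against 3335 and 2068 CPM. The 10 megakaryocyte and platelet markers summed to 308 to 546 CPM in the 3 replicate 2 libraries and to 2789 to 11071 CPM in the other 6 WT libraries. The part of these cells in the levels of the members was not tested.

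With all WT libraries numbered 2 left out, 2 libraries remained in each group and 6 members passed under C16. Jun (0.54, adjusted p = 0.0146), Egr1 (0.43, adjusted p = 0.000663) and Ier2 (0.46, adjusted p = 0.00341) rose, where 20.8% of all genes rose. Fosl2 (-0.54, adjusted p = 0.000319), Klf2 (-0.74, adjusted p = 0.0383) and Klf6 (-0.28, adjusted p = 0.0189) fell, where 20.9% fell. In that setting 41.7% of all genes were called, against 3.1% with all 9 libraries. Under RE 0 members passed in it (8.02%). In the contrast of C16 with RE without these libraries, Fosl2, Jund, Klf2 and Klf6 were lower after C16 (21.4% of all genes), by -0.43 (Jund) to -1.03 (Klf2), and Egr1 (0.39) and Ier2 (0.43) were higher (22.9%).

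**Figure D4:**
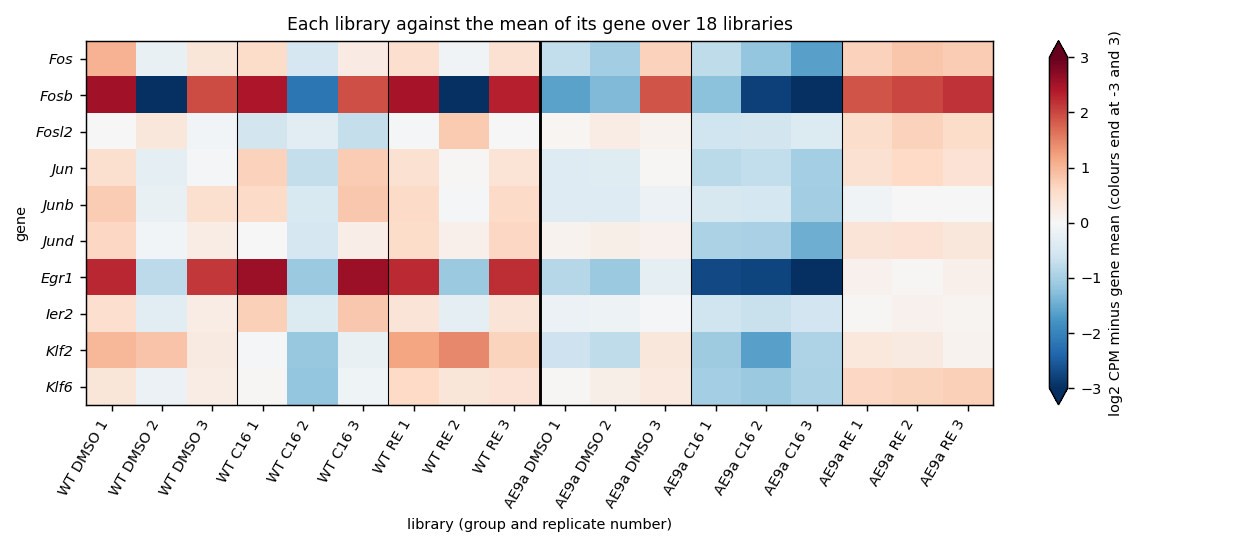
Deviation of each library from the mean of its gene over 18 libraries (log2 CPM, colour scale ending at -3 and 3; rows are genes, columns are libraries by group and replicate number). Fosb and Egr1 are low in each WT replicate 2 and in the AE9a C16 libraries, and AE9a DMSO replicate 3 is red for Fos and Fosb where AE9a DMSO replicates 1 and 2 are blue.

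Between the genotypes under DMSO, tested over all 18 libraries, 8 of the 10 were lower on average in AE9a cells and 1 passed, Klf2 (log2 difference -0.99 ± 0.33, adjusted p = 0.0384), where 26.7% of 15809 genes changed in either direction and 13.8% were lower. No member had AE9a and WT libraries wholly apart (47.8% of all genes in either direction); for Klf2, AE9a DMSO replicate 3 lay above WT DMSO replicate 3. The call was lost without AE9a DMSO replicate 1 (-0.84, adjusted p = 0.135) or 2 (-0.79, adjusted p = 0.160) or WT DMSO replicate 1 (-0.85, adjusted p = 0.123) or 2 (-0.91, adjusted p = 0.0915). Egr1 differed most in size, by -2.39 ± 0.90 (adjusted p = 0.0639), with 44.9, 37.5 and 66.4 CPM in AE9a against 395, 47.4 and 354 CPM in WT. Here WT replicate 2 lay among the AE9a libraries, and without it the difference was -2.88 (adjusted p = 0.0258). Junb (-0.69 ± 0.28, adjusted p = 0.0796) passed without the same library (-0.91, adjusted p = 0.0262), and Fos (-0.61 ± 0.41, adjusted p = 0.299) passed without AE9a DMSO replicate 3 (-1.34, adjusted p = 0.0183). With all WT libraries numbered 2 left out, Jun, Junb, Egr1, Ier2 and Klf2 were lower in AE9a (25.9% of all genes) and Fosl2 was higher (24.8%). Klf6 (0.040 ± 0.21) and Jund (-0.13 ± 0.18) had intervals of -0.40 to 0.48 and -0.52 to 0.27.

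The difference between the genotypes in the response to C16 was negative for 9 of the 10, meaning a lower value in AE9a than in WT, and passed for Jund alone (-0.88 ± 0.26, adjusted p = 0.0412; 13.1% of all genes passed in either direction and 8.29% were lower). The changes of the single libraries from their DMSO mean did not overlap between genotypes for Jund (21.5% of all genes in that direction). The call held without AE9a C16 replicate 2, WT DMSO replicate 1 or WT C16 replicate 2. It was lost when any other of the 12 libraries was left out (differences of -0.72 to -0.96), and the adjusted p was then at most 0.117. Egr1 had a difference of -2.52 ± 1.25 (adjusted p = 0.182), Jun of -0.89 ± 0.40 (adjusted p = 0.146), Ier2 of -0.75 ± 0.35 (adjusted p = 0.162) and Klf6 of -0.69 ± 0.29 (adjusted p = 0.124). With the replicate number as a block, which is shown to match replicate 2 in WT but no AE9a DMSO and C16 libraries, these 4 and Jund passed (17.4% of all genes were lower): Egr1 at -2.32 (adjusted p = 0.000265), Ier2 at -0.71 (adjusted p = 0.00393), Klf6 at -0.65 (adjusted p = 0.0278), Jun at -0.82 (adjusted p = 0.0459) and Jund at -0.89 (adjusted p = 0.00190). The same 5 passed without WT C16 replicate 2 (16.9%), at -3.04 (Egr1, adjusted p = 0.0382), -1.22 (Jun, adjusted p = 0.00247), -1.03 (Ier2, adjusted p = 0.00607) and -0.96 (Klf6, adjusted p = 0.000604). With all WT libraries numbered 2 left out they passed as well (21% of all genes were lower). Fosl2, which was lower after C16 in both genotypes, had a difference of -0.0044 ± 0.28 (95% interval -0.60 to 0.59). For RE the genotype difference was positive for all 10 and passed for 0 by edgeR's test (0% of all genes), with 0 of the 10 at an unadjusted p under 0.05 and 0 by DESeq2. Fos, Fosb, Jun and Klf6 were the 4 whose changes did not overlap between genotypes (8.47%), with differences of 1.15 ± 0.59 for Fos and 1.39 ± 1.92 for Fosb. With all WT libraries numbered 2 left out 1 passed, Fosl2 (0.49, adjusted p = 0.0424, where 0.719% of all genes were higher).

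Genes around the 10 members, from lists written with earlier results of these data known, moved in AE9a cells as follows. Over all genes 33.2% fell and 33.1% rose under C16, and 12.2% rose and 16.8% fell under RE, and several list counts lie near these shares. Of 30 other immediate early genes tested, 16 fell and 4 rose under C16 (median log2 change -0.44), and 12 rose and 1 fell under RE (median 0.35). Egr3, a zinc finger relative of Egr1, was at 6.28 ± 0.430 CPM with DMSO, 1.33 ± 0.246 after C16 (log2 change -2.20) and 11.6 ± 1.20 after RE (0.92). Rgs1, a brake on G protein signalling, had means of 66.1, 12.6 and 165 CPM (changes of -2.34 ± 0.37 and 1.36 ± 0.33), and the nuclear receptor gene Nr4a3 changed by -1.54 and 1.03. All 3 passed in both comparisons. Dusp1, whose phosphatase inactivates JNK and p38, was at 16, 15.6 and 35.5 CPM with DMSO, 12.8, 9.43 and 6.82 CPM after C16 and 38.3, 41.0 and 39.4 CPM after RE. It thus shared the high DMSO replicate 3, fell under C16 (-1.16, adjusted p = 0.0116) and did not pass under RE (0.88, adjusted p = 0.0620). Not all early genes moved: Atf3 changed by 0.37 and 0.15, Nr4a1 by -0.13 and 0.35, Egr2 by -0.46 and 0.50 and Zfp36 by -0.42 and 0.13, and none of these passed. The count of 12 rises under RE was 4 without DMSO replicate 1 and 5 without RE replicate 2 or 3. With the spread from all 18 libraries 10 fell and 1 rose under C16, and 1 rose under RE.

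Feedback genes of the ERK and JNK pathways are induced by the kinases they restrain. Of 11 tested, 8 fell and 2 rose under C16 (median -0.62), and 6 rose and 0 fell under RE (median 0.33). Dusp6, the phosphatase of ERK, was at 116 ± 14.8 CPM with DMSO, 27.8 ± 5.45 after C16 (-2.03) and 172 ± 14.8 after RE (0.61). Spred1, an inhibitor of RAS signalling, was at 345 ± 40.7, 95.9 ± 16.8 (-1.81) and 483 ± 53.1 CPM (0.53), and Dusp4 changed by -1.22 and 1.27. The 6 rises were 2 without DMSO replicate 1 or RE replicate 2 and 3 without DMSO replicate 3, and 0 with the spread from all 18 libraries, where 5 fell under C16. In the genotype difference of the C16 response, 13.1% of all genes passed edgeR's test and 8.29% were lower. Of 12 feedback genes, Dusp6 (-1.22, adjusted p = 0.0165), Spred1 (-1.64, adjusted p = 0.00905) and Dusp8 (adjusted p = 0.0393, with a mean of at most 0.503 CPM in AE9a DMSO and C16) passed. Of 31 other immediate early genes, Dusp5 (-1.22, adjusted p = 0.0212) and Nr4a2 (-1.31, adjusted p = 0.0186) passed. Dusp8 and Nr4a2 were chosen after their values were seen.

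The remaining lists did not share one direction. Of 11 other AP-1 family genes, 5 fell and 3 rose under C16 and 1 each rose and fell under RE. Jdp2, a repressor that pairs with JUN proteins, rose by 0.72 ± 0.087 under C16 and Batf, a partner of JUN in lymphoid cells, by 0.59 ± 0.085, while the small MAF gene Mafk fell by 0.57 (-0.57 ± 0.043). Without C16 replicate 3, 5 rose and 5 fell. Of 9 other Kruppel-like factor genes, 5 fell and 1 rose under C16, among them Klf7 (-1.21) and the erythroid factor Klf1 (-4.01, from 13.7 ± 0.860 to 0.815 ± 0.399 CPM), and 1 rose under RE. Of 26 upstream kinases and serum response factors, 11 rose and 8 fell under C16 and 5 rose and 4 fell under RE. Mapk8, which encodes JNK1, rose under C16 by 0.66 ± 0.090 and Map3k1, a kinase above JNK, by 0.82 ± 0.11, whereas Crem, a cyclic AMP response factor, fell by 2.06 (-2.06 ± 0.17) under C16 and rose by 0.76 ± 0.15 under RE. In the heat shock and handling list 7 of 13 rose and 3 fell under C16, led by Hspd1 (1.25 ± 0.067). These counts are descriptions, and no list was tested.

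In WT cells 0 genes of these 6 lists passed under either compound. With the replicate number as a block, 3 of 31 other immediate early genes rose and 7 fell under C16, where 10.4% of all genes rose and 13.8% fell. After C16 against RE, 4 of the 31 were lower: Btg1 (-0.97), Zfp36l1 (-0.80), Nfil3 (-0.61) and Rgs2 (-0.80), with Dusp6 (-1.07) among the feedback genes. Over all genes 6.49% were lower in that contrast without the block and 18.5% with it. Between the genotypes under DMSO, 11 of the 31 were lower and 3 higher in AE9a (median log2 difference -0.65), beside 13.8% and 12.9% of all genes, among the lower ones Sgk1, a kinase gene of the stress response (-2.33), and Egr2, a relative of Egr1 (-2.02). Of the feedback genes Dusp6 (0.93), Spred1 (1.74) and Spred2 (0.57) were higher in AE9a and 3 of 12 were lower. Without single libraries the 11 lower genes were 6 to 13 and the 3 higher ones 0 to 2.

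Across the 9 AE9a libraries the members varied together: all 45 pairs had a positive Pearson correlation of log2 CPM, from 0.753 (Junb and Klf2) to 0.995 (Ier2 and Klf6). Across the 9 WT libraries 37 of 45 were positive, from -0.653 (Fosl2 and Ier2) to 0.981 (Fosb and Egr1). Over all 18, 43 of 45 were positive, and both exceptions held Fosl2, with Ier2 (-0.046) and Junb (-0.018). These values describe libraries that share groups and, in WT, the low replicate 2. Of all other genes with a mean of at least 5 CPM, Dusp1 was the most like the mean of the 10 members over 18 libraries (r = 0.974), followed by Ctla2a (0.971), Havcr2 (0.964), Dusp10 (0.960) and Prr13 (0.958). Over the 9 AE9a libraries Dusp1 was again first (0.992), followed by Srr (0.983), Exoc6b (0.980), Pira12 (0.980) and Sat1 (0.979). Over the 9 WT libraries the 5 most alike were Crlf2 (0.994), Tnfsf8 (0.987), Cd300a (0.987), Aldh1l1 (0.985) and Plxdc2 (0.984).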

How the data were processed

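RNA-seq libraries of cKit-selected mouse bone marrow cells were compared: 2 genotypes by 3 treatments, 3 libraries each. The 10 genes, the gene lists and the tests were chosen with earlier results of these data known. The values are whole-number counts of fragments per gene, as deposited by the authors in 1 table per genotype. Per the file headers, featureCounts 1.6.2 counted read pairs over exons from primary alignments, without strand. Per the submitters' processing notes, the tools named are HISAT2 2.1.0, fastp 0.23.2, FastQC 0.11.9, Subread, featureCounts 2.0.3 and DESeq2, without their order; the version of featureCounts behind the tables is unclear. Gene positions are those of the tables (GRCm39), and promoters those of RefSeq (GRCm38.p6). None of the 10 shared exon bases with another gene of the tables.

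CPM values were counts over the library total, and per-kilobase values used the exon length in the tables. Tests of compounds used the 9 libraries of 1 genotype; tests of genotypes and of differences in response used all 18. Genes passing filterByExpr (14704 in AE9a, 15046 in WT, 15809 in all) were scaled by TMM and tested with edgeR's quasi-likelihood F test, with Benjamini-Hochberg adjustment over all genes tested and a threshold of 0.05 (R 4.3.3, edgeR 4.0.16, limma 3.58.1, DESeq2 1.42.0). The analysis was tested on simulated data in which no library stood apart, so that test does not cover the effect of such libraries. Depth limits low genes most: the lowest value, Fosb in AE9a C16 replicate 3, was 4 fragments.

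Replicate numbers were taken to pair groups where same-numbered libraries deviated together from their group means, with every correlation over 0.1. These were 0.649 to 0.906 among WT groups, where replicates 1 and 3 correlated as highly across numbers and only replicate 2 is matched, 0.378 to 0.593 between AE9a DMSO and RE, 0.127 to 0.200 between AE9a C16 and RE, and 0.0093 to 0.410 between AE9a DMSO and C16, which are therefore not shown to be paired. Alternatives were RLE and upper-quartile scaling, no filter, DESeq2, limma-voom, the replicate block, other sets of libraries, each library left out, and WT libraries numbered 2 left out.

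Named besides the 10 were up to 4 genes per list and comparison with the largest change (adjusted p under 0.05, higher group at 5 CPM or more on average, groups not overlapping), and always Atf3, Dusp1, Nr4a1, Egr2 and Zfp36. Genes outside this rule (Dusp8 and Nr4a2) were chosen after their values were seen. The 5 genes most like the members were ranked by Pearson correlation with the members' mean log2(CPM + 0.5).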

Additional observations from a re-analysis of the deposited data

Results flagged for a closer look

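The response of Jund to C16 differed between the genotypes by a test of the difference itself: the log2 change in AE9a cells minus that in WT cells was -0.88 (95% interval -1.44 to -0.31, adjusted p = 0.0412 by edgeR's quasi-likelihood test). The call was lost without any 1 of 9 of the 12 libraries (adjusted p of at most 0.117) and in a fit of only the groups compared (-0.88, adjusted p = 0.0821). In separate fits of each genotype, which need not subtract to this value, Jund changed by -1.21 under C16 in AE9a and by -0.28 in WT.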

How the results depend on the processing

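No value of a single gene changed sign while called. Of 1400 such values under the alternatives, 1239 kept their direction and side of the threshold, 59 came to pass it, 42 no longer passed, and 60 uncalled values changed sign. Counts of genes called out of 10 moved as follows. Shares in brackets are those of all genes called in either direction in the same setting. With all 18 libraries in 1 fit, AE9a C16 against DMSO gave 3 in place of 8 (45.8%) and AE9a RE against DMSO 0 in place of 5 (3.16%). AE9a C16 against RE gave 9 in place of 10 (57%). WT C16 against DMSO gave 1 in place of 0 (19%) and WT C16 against RE 3 in place of 1 (28.4%). DESeq2 gave 1 for WT C16 against DMSO, 3 for WT C16 against RE and 2 in place of 1 for the genotypes under DMSO, where no filter gave 0. AE9a RE against DMSO gave 7 by DESeq2, by limma-voom and with only the libraries of the groups compared; AE9a C16 against DMSO gave 9 by DESeq2 and 7 with the block or only those libraries. Only the libraries of the groups compared gave 0 in place of 1 for WT C16 against RE, for the genotypes under DMSO and for the genotype difference under C16. The replicate block gave 2 for WT C16 against DMSO (24.2%) and 4 for WT C16 against RE (34.2%). The block gave 5 for the genotype difference under C16 (36.8%). It also took Fosb in AE9a C16 against DMSO to an adjusted p of 0.0706 (edgeR). No paired analysis was possible because the blocks are nested in genotype for the genotypes under DMSO. With all WT libraries numbered 2 left out the counts were 6 for WT C16 against DMSO (41.7%) and 6 for WT C16 against RE (44.3%). They were 6 for the genotypes under DMSO (50.7%), and 5 and 1 for the genotype differences under C16 (49.8%) and RE (1.25%). Leaving out 1 library gave 6 to 9 for AE9a C16 against DMSO, 4 to 8 for AE9a RE against DMSO, 10 for AE9a C16 against RE, 0 to 1 for WT C16 against RE, 0 to 2 for the genotypes under DMSO and 0 to 5 for the genotype difference under C16. The counts without a share beside them cannot be compared here with the genes at large. The cause of these shifts was not tested.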

Other observations

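Other cell type markers, by summed CPM in each group, give the setting of these values. Monocyte and macrophage markers summed to 2040 to 2624 CPM in AE9a DMSO, 1818 to 2653 in AE9a C16 and 1230 to 1710 in AE9a RE, and to 3087 to 4921, 1168 to 1877 and 1768 to 5727 CPM in WT. Erythroid markers summed to 958 to 1031 CPM in AE9a DMSO, 727 to 800 in AE9a C16 and 674 to 730 in AE9a RE. Of 10 erythroid markers in AE9a, 8 fell and 1 rose under C16. Megakaryocyte markers in AE9a summed to 269 to 397, 58.7 to 151 and 424 to 552 CPM, in the same order of groups. B cell markers were at most 827 CPM in any library, stromal and endothelial markers at most 337 and T and NK cell markers at most 162, with Cd3e at 0 in all 9 AE9a libraries.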
